A study of Arabidopsis thaliana with 6 samples.

Results

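The genes described here are 7 *Arabidopsis* genes, the beta-glucosidase genes *PYK10* (AT3G09260, also *BGLU23*) and *BGLU25* (AT3G03640) and the jacalin-like lectin genes AT1G52000, AT1G52050, AT1G52070, AT1G52100 and AT1G52120. They were taken by name, and a probe set counted as measuring one of them only if the array's annotation paired it with that gene alone. By this rule 6 of the 7 genes were measured, each by 1 probe set, out of 13350 genes named in this way among 22746 probe sets. No probe set is paired with AT1G52120, so the lectins are represented by 4 of 5 genes. Both glucosidase genes lie on chromosome 3, and the lectin genes lie close together on chromosome 1 in the TAIR10.1 annotation.

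The study asked how plants respond to short chitin oligomers. Whole seedlings of the ecotype Col-0, grown for 14 days in liquid Murashige and Skoog (MS) medium, received either the chitin tetramer (4mer) at 100 µg/mL in water or the same amount of water alone (mock), and were harvested after 30 min. Each group holds 3 independent biological replicates, each grown as a culture of many seedlings and hybridized to an Affymetrix ATH1 array. A level is given below as the signal of a probe set divided by the median signal of its array, so that 1 is the median probe set. Levels of different probe sets are not set against each other, since probe sets differ in brightness for the same amount of RNA. In whole seedlings, fewer cells of a type and less RNA per cell cannot be told apart.

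*PYK10* encodes the main protein of ER bodies, spindle-shaped compartments of the endoplasmic reticulum that are found in seedlings and roots of *Arabidopsis* and its relatives. ER bodies store beta-glucosidases away from their substrates. When a cell is broken, PYK10 meets glucosides such as indole glucosinolates and coumarin glucosides, removes the sugar, and releases products that act against herbivores and microbes. Jacalin-like lectins are carbohydrate-binding proteins, and several of them, together with GDSL lipase-like proteins, assemble with PYK10 into large complexes after tissue damage. The lectin genes of the AT1G52000 to AT1G52120 stretch belong to the same large lectin family, but no role of their own is assigned to them here.

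The signal of mock replicate 1 stood apart from the other arrays. Over the 11431 probe sets with a mean level of at least 1, its log2 levels correlated with those of the other arrays at r between 0.947 and 0.957, whereas all pairs among the other 5 arrays lay between 0.984 and 0.994. The difference from the other mock arrays was clearest among bright probe sets. Among the 168 other probe sets with a mean level of at least 40, the median ratio of mock replicate 1 to the mean of mock replicates 2 and 3 was 1.42, and among the 7997 with a mean level from 1 to 5 it was 0.990. Only 2 of 28 listed root marker genes and 4 of 28 listed shoot marker genes are named among the probe sets, none of them at 0. The root hair expansin genes *EXPA7* and *EXPA18* together summed to 2.58 to 2.75 in 4mer arrays and 2.39 to 3.47 in mock arrays, but over all arrays they did not behave alike. *EXPA18* was at 1.34, 1.24 and 1.51 with the 4mer and at 1.71, 1.99 and 1.82 in mock, lower without overlap, at -0.44 on the log2 scale (limma unadjusted p = 0.00495, adjusted p = 0.234). *EXPA7* was at 1.24, 1.40 and 1.24 with the 4mer and at 0.682, 1.48 and 1.47 in mock, so that its groups overlapped and mock replicate 1 was low. Without mock replicate 1 both were lower with the 4mer. On the log2 scale *EXPA7* then lay at -0.19 (limma adjusted p = 0.378) and *EXPA18* at -0.49 (limma adjusted p = 0.0755). The photosynthesis genes *LHCB4.1*, *PSAE-1*, *RCA* and *PRK* summed to 184.6 to 212.7 in 4mer arrays and 179.2 to 248.6 in mock arrays, with the highest sum in mock replicate 1. Without that array all of them were higher with the 4mer. In the same order they lay at 0.20, 0.16, 0.14 and 0.10 on the log2 scale (limma adjusted p from 0.232 to 0.453). Markers of both organs were above 0 in every array, but so were nearly all probe sets, with only 1 to 4 per array at 0. The part of organ proportions in the results below was not tested.

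The 6 measured genes did not differ from mock in 1 common direction after 30 min with the 4mer. The lectin gene AT1G52100 was higher and *BGLU25* was lower in every 4mer array than in every mock array. AT1G52070 was lower by a small margin, and *PYK10*, AT1G52000 and AT1G52050 had overlapping groups. None of the 6 passed the limma test at an adjusted p under 0.05, a threshold that 0.0659% of all probe sets passed as higher and 0.0352% as lower. At an unadjusted p under 0.05, 1 of 6 was higher, where 4.54% of all probe sets were, and 2 of 6 were lower, where 6.86% of all probe sets were. The groups did not overlap, with the 4mer higher, in 1 of 6 genes and in 7.86% of all probe sets, and with the 4mer lower in 2 of 6 genes and in 12.5% of all probe sets. These counts rest on 6 genes that were chosen with earlier results of these arrays known, and they carry no test of their own.

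**Figure D1:**
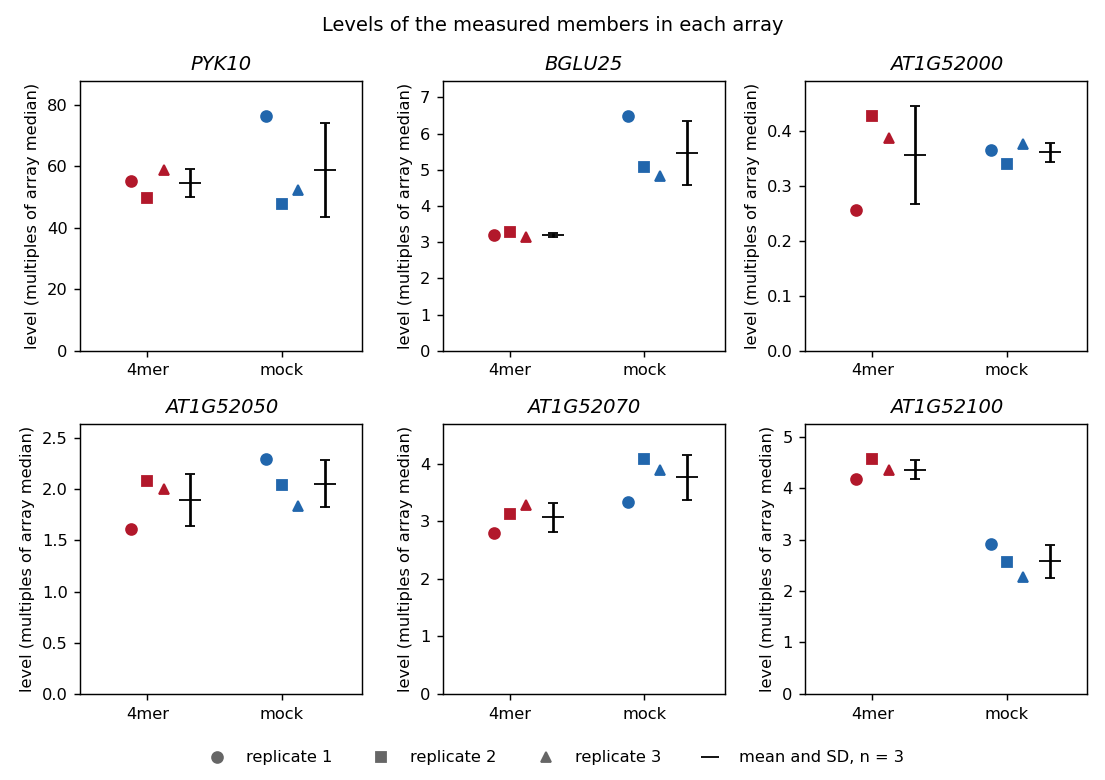
Level of each measured gene (y axis, multiples of the array's median signal, from 0) in the 3 arrays of the 4mer (red) and the 3 of mock (blue), with the mean and SD beside each group. The *AT1G52100* points of the 4mer lie between 4.18 and 4.56 and those of mock between 2.27 and 2.91, while the *PYK10* point of mock replicate 1, at 76.2, lies above all its other points.

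*PYK10*, the ER body glucosidase, was at 55.2, 49.6 and 58.7 times the array median in 4mer replicates 1, 2 and 3, against 76.2, 47.8 and 52.4 in the same replicates of mock. The 4mer arrays fell within the range of the mock arrays, and only mock replicate 1 stood out as high. The mean was 54.5 ± 4.61 (SD, n = 3) with the 4mer and 58.8 ± 15.3 (n = 3) in mock. The log2 fold change (4mer minus mock, below also called the log2 difference) was -0.08 ± 0.19 (SE), with a limma adjusted p of 0.899. The 95% confidence interval ran from -0.51 to 0.34, that is, from 0.702-fold to 1.27-fold of the mock level.

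The wide interval of *PYK10* came with the high value of mock replicate 1. In that array the gene was 1.52 times the mean of the other 2 mock arrays, and the probe sets of its brightness band had a median ratio of 1.42, with the middle 50% of them between 1.31 and 1.53. With quantile normalization, which gives every array the same distribution of signals, *PYK10* was at 56.1, 54.6 and 58.0 with the 4mer and at 58.7, 52.9 and 58.7 in mock. The log2 difference was then -0.01 ± 0.07 (SE, limma adjusted p = 0.957). Without mock replicate 1 it turned to 0.12 (limma adjusted p = 0.499). *PYK10* passed the test in none of these fits.

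**Figure D2:**
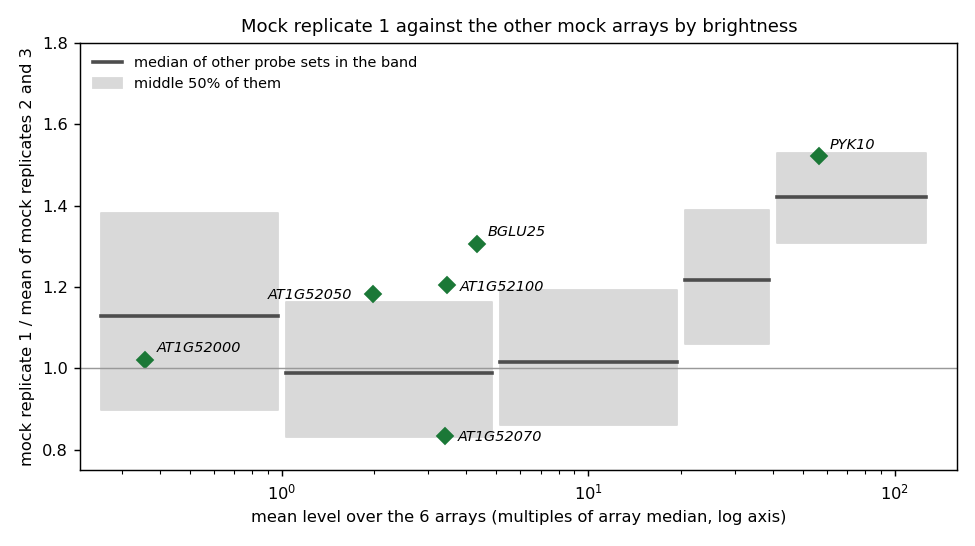
Ratio of mock replicate 1 to the mean of mock replicates 2 and 3 (y axis) against the mean level over the 6 arrays (x axis, log scale). Grey bars show the middle 50% and dark lines the median of all other probe sets in 5 brightness bands, and green diamonds show the measured genes, with *PYK10* at 1.52 in the brightest band, whose median is 1.42.

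*BGLU25*, which encodes a beta-glucosidase of the same family as PYK10, was at 3.19, 3.27 and 3.15 times the array median with the 4mer, against 6.48, 5.08 and 4.83 in mock. All 4mer values were below all mock values, and the 3 4mer arrays lay close together, with a coefficient of variation of 1.87%, where that of mock was 16.2%. The mean was 3.20 ± 0.0601 (SD, n = 3) with the 4mer and 5.47 ± 0.886 (n = 3) in mock. On the log2 scale *BGLU25* lay -0.76 ± 0.11 (SE) from mock, or at 0.591 times the mock level, with a 95% confidence interval from -1.02 to -0.49 in log2. The limma adjusted p of 0.0617 missed the threshold.

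Mock replicate 1 also had the highest *BGLU25* value, at 1.31 times the mean of the other mock arrays. Without this array the log2 difference was smaller, at -0.63, and it passed the test (limma adjusted p = 0.00522). In that fit 0.8% of all probe sets passed as higher and 0.686% as lower. *BGLU25* also passed when the test was limited to probe sets with a mean level of at least 1 (adjusted p = 0.0481), and leaving out any array other than mock replicate 1 gave adjusted p-values between 0.128 and 0.297. Relative to the mock median, the ratio used in the study's methods, the 4mer arrays were at 0.628, 0.643 and 0.619.

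The lectin gene AT1G52100 was at 4.18, 4.56 and 4.35 times the array median with the 4mer, against 2.91, 2.56 and 2.27 in mock. All 4mer values exceeded all mock values, and the highest mock value was again in replicate 1, on the side of the 4mer. The mean was 4.36 ± 0.192 (SD, n = 3) with the 4mer and 2.58 ± 0.318 (n = 3) in mock. This is a 1.70-fold higher level, or a log2 difference of 0.76 ± 0.10 (SE) with a 95% confidence interval from 0.53 to 1.004, and the limma adjusted p was 0.0564. Relative to the mock median, the 3 arrays of the 4mer were at 1.63, 1.78 and 1.70.

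The call for AT1G52100 depended on the fit. It passed without mock replicate 1, at a log2 difference of 0.85 (limma adjusted p = 0.00464), among probe sets with a mean level of at least 1 (adjusted p = 0.0458), and without scaling between arrays (adjusted p = 0.0410). When 1 of the other arrays was left out, the adjusted p lay between 0.142 and 0.269, and the log2 difference stayed between 0.68 and 0.85 over all 13 alternatives. The direction was therefore the same in every fit that was run, and the side of the threshold was not. Leaving out an array could not reverse the direction, since the groups did not overlap.

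The other lectin genes did not share this pattern. AT1G52070 was at 2.79, 3.13 and 3.28 with the 4mer and at 3.33, 4.075 and 3.89 in mock, so that the groups were separated only by the gap between 3.28 and 3.33. Its mean was 3.07 ± 0.252 (SD, n = 3) with the 4mer and 3.77 ± 0.391 (n = 3) in mock, a log2 difference of -0.29 ± 0.11 (SE, 95% confidence interval -0.54 to -0.05, limma adjusted p = 0.368). Unlike *PYK10*, *BGLU25* and AT1G52100, this gene was lowest among the mock arrays in replicate 1, and without that array its log2 difference was -0.38 (limma adjusted p = 0.0700). Like AT1G52070 and *BGLU25*, the root marker *EXPA18* was lower in every 4mer array, at -0.44 on the log2 scale. The other measured root marker, *EXPA7*, was at 0.18 over all arrays with overlapping groups, and at -0.19 without mock replicate 1. The part of root proportions in these results was not tested.

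AT1G52050 was at 1.61, 2.08 and 2.01 with the 4mer and at 2.29, 2.04 and 1.84 in mock. The groups overlapped, and the low value of 4mer replicate 1 had no counterpart in the other 4mer arrays. The mean was 1.90 ± 0.253 (SD, n = 3) with the 4mer and 2.06 ± 0.228 (n = 3) in mock. They differed by -0.12 ± 0.13 (SE) on the log2 scale, with a 95% confidence interval from -0.42 to 0.19 (limma adjusted p = 0.772). AT1G52000 was dim, at 0.257, 0.427 and 0.388 with the 4mer and at 0.366, 0.341 and 0.376 in mock. Its mean was 0.357 ± 0.0891 (SD, n = 3) with the 4mer and 0.361 ± 0.0180 (n = 3) in mock. Here the log2 difference was -0.05 ± 0.25 (SE), with a 95% confidence interval from -0.63 to 0.54 (limma adjusted p = 0.963), and it turned to 0.17 without 4mer replicate 1, the lowest of its values (adjusted p = 0.878). No detection calls were used, so whether this dim signal lies above background is not known here.

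**Figure D3:**
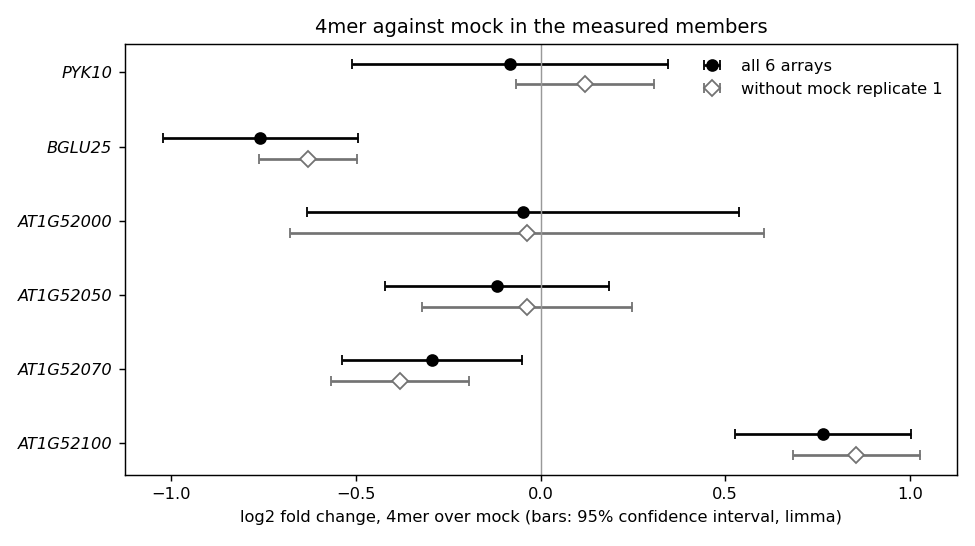
Log2 fold change of the 4mer over mock (x axis) for each measured gene, with its 95% confidence interval from limma, over all 6 arrays (black) and without mock replicate 1 (grey). The intervals of *BGLU25* and *AT1G52100* lie on opposite sides of 0 in both fits, with point values of -0.76 and 0.76 over all arrays.

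The change of AT1G52100 was set against that of each other measured gene by taking the difference of their log2 levels within each array. The difference between the changes was 1.52 against *BGLU25*, 1.06 against AT1G52070, 0.88 against AT1G52050, 0.85 against *PYK10* and 0.81 against AT1G52000. In all 5 pairs the 3 4mer arrays lay above the 3 mock arrays. Each gave p = 0.10 in a two-sided exact permutation test, before and after Benjamini-Hochberg adjustment over the 5 pairs, and this is the smallest p that 3 against 3 arrays allow. AT1G52100 was set against the others because its value was already known, and all 5 pairs share its values. The separation and the p-values therefore describe these arrays and cannot serve as support for a difference.

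Along chromosome 1 the lectin gene with the higher level stood among others with log2 differences below 0. The stretch from AT1G51980 to AT1G52140 holds 19 annotated genes and pseudogenes, of which 12 have a probe set that the array's annotation pairs with that gene alone. It holds 10 genes of the lectin list, and of the 5 measured among them, 1 was higher with the 4mer and 4 were lower, counted by the sign of the log2 fold change alone. By the same count 11902 of all 22746 probe sets were lower. Among the lower lectin genes, AT1G52000 and AT1G52050 had overlapping groups and confidence intervals that included 0. AT1G52060, the lectin gene between AT1G52050 and AT1G52070, was at 3.46, 4.099 and 4.17 with the 4mer and at 6.15, 5.82 and 5.21 in mock. All its 4mer values were below all its mock values, with a log2 difference of -0.55 ± 0.10 (SE, limma adjusted p = 0.116, and 0.0522 without mock replicate 1). *AR791* (AT1G52080), the gene after AT1G52070, lay -0.46 from mock on the log2 scale (limma adjusted p = 0.352), and its groups did not overlap. *AR791* was named after its values were seen. The lectin genes of this stretch are related in sequence, and whether their RNAs hybridize to each other's probes was not tested.

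**Figure D4:**
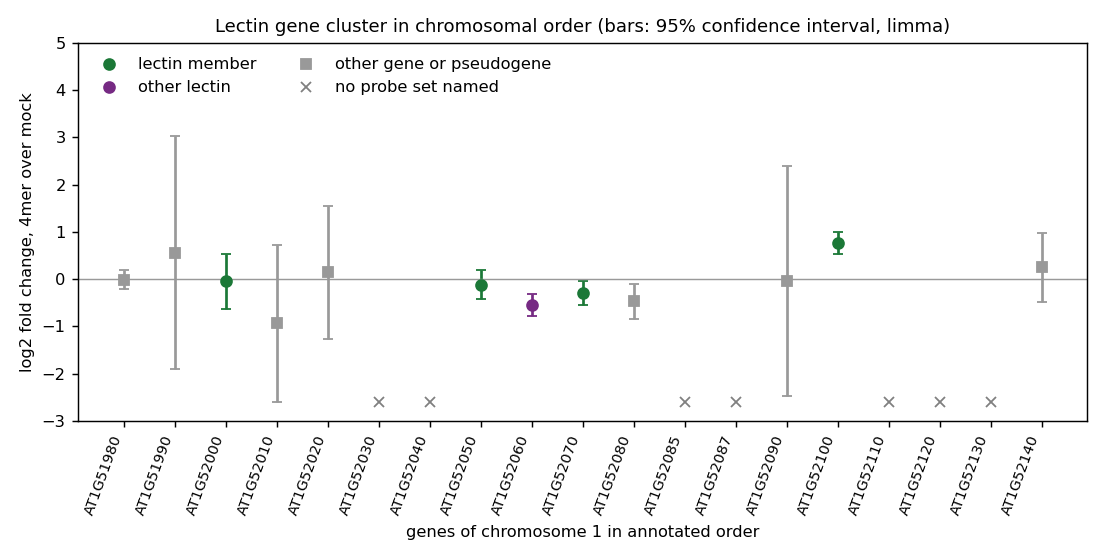
Log2 fold change of the 4mer over mock (y axis, bars are 95% confidence intervals from limma) for the 19 genes from AT1G51980 to AT1G52140 in their order on chromosome 1, evenly spaced. Crosses mark genes with no probe set paired with that gene alone, and among the lectin genes (circles) *AT1G52100*, at 0.76, is the only one above 0.

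Of 23 listed genes of ER bodies and the PYK10 complex, 11 were measured, *PYK10* and *BGLU25* included, and none passed the limma test over all probe sets. At an unadjusted p under 0.05, none was higher and 1 was lower, which was *BGLU25* itself. The median log2 fold change of the list was -0.04, against -0.01 over all probe sets. Among the dim genes of the list, *BGLU24* was at 0.194, 0.178 and 0.169 with the 4mer and at 0.169, 0.127 and 0.127 in mock (log2 difference 0.37, limma adjusted p = 0.677), and its groups only just failed to overlap. The 95% confidence intervals of *BGLU19*, from -1.71 to 1.32, and *ATA27* (*BGLU20*), from -2.77 to 2.82 on the log2 scale, left their differences undetermined. *NAI1*, a basic helix-loop-helix transcription factor needed for ER body formation and *PYK10* expression, was at 1.28, 1.35 and 1.29 with the 4mer and at 1.29, 1.22 and 1.199 in mock (log2 difference 0.08, limma adjusted p = 0.800). *NAI2*, which encodes an ER body protein required to build these compartments, was at 16.8, 16.3 and 16.01 with the 4mer and at 17.2, 16.9 and 16.1 in mock (log2 difference -0.03, limma adjusted p = 0.913). *NAI1* and *NAI2* were named for their role, and *BGLU24*, *BGLU19* and *ATA27* for their values, after the values were seen.

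Among the lectins of the complex, *JAL34* was at 29.2, 29.5 and 29.4 with the 4mer and at 29.1, 29.5 and 30.4 in mock, a log2 difference of -0.01 ± 0.09 (SE, limma adjusted p = 0.971). The differences were -0.04 for *JAL33* (limma adjusted p = 0.883) and -0.11 for *JAL22* (0.763), with the highest *JAL22* value, 17.6, in mock replicate 1. In the family as a whole, 20 of 44 listed lectin genes were measured, 4 of them being the genes described above, and none passed the test over all probe sets. At an unadjusted p under 0.05, AT1G52100 was the 1 gene that was higher, and AT1G52060, AT1G52070 and the dim AT5G49870 (log2 difference -0.79, limma adjusted p = 0.345) were the 3 that were lower. The median log2 fold change of the list was -0.07. Without mock replicate 1, AT1G52100 was the only gene of the list that passed.

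*BGLU28* lay on the other side of mock from *BGLU25* within the beta-glucosidase family. It encodes a glucosidase known for its induction under sulfur shortage, where it takes part in glucosinolate breakdown. Its level was 1.09, 1.23 and 1.26 with the 4mer and 0.654, 0.585 and 0.674 in mock, so that the groups did not overlap. This is a log2 difference of 0.90 ± 0.14 (SE, limma adjusted p = 0.0610), which without mock replicate 1 was 0.92 and passed the test (limma adjusted p = 0.0220).

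Of 47 genes with a BGLU number, 22 were measured, and none passed over all arrays. At an unadjusted p under 0.05, 4 were higher (*BGLU28*, *BGLU31*, *BGLU36* and *BGLU43*) and 2 were lower (*BGLU25* and *BGLU40*). *BGLU31*, *BGLU36* and *BGLU43* were dim, below 0.25 in every array, so that their log2 fold changes of 1.65, 1.23 and 1.52 rest on small signals, and *BGLU40* had one of -0.28 (limma adjusted p = 0.415). For *BGLU44* it was -0.04 (0.936) and for *BGLU16* 0.24 (0.514), with the limma adjusted p in parentheses. The median over the family was 0.04, against -0.01 over all probe sets. Without mock replicate 1 it was 0.28, against 0.002 over all probe sets, and *BGLU28* and *BGLU25* were the genes that passed. This 0.28 lies between the values of *BGLU45*, at 0.23, and *BGLU27*, at 0.33. Both were dim, with mean levels of 0.188 and 0.191 over the 6 arrays, so that the family median rests on small signals. Of 27 listed genes of indole glucosinolate synthesis and breakdown, which make and use the substrates of PYK10, only *UGT74B1* was measured, with 5.59, 5.30 and 5.56 with the 4mer and 4.86, 5.77 and 5.75 in mock (log2 difference 0.01, limma adjusted p = 0.976).

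**Figure D5:**
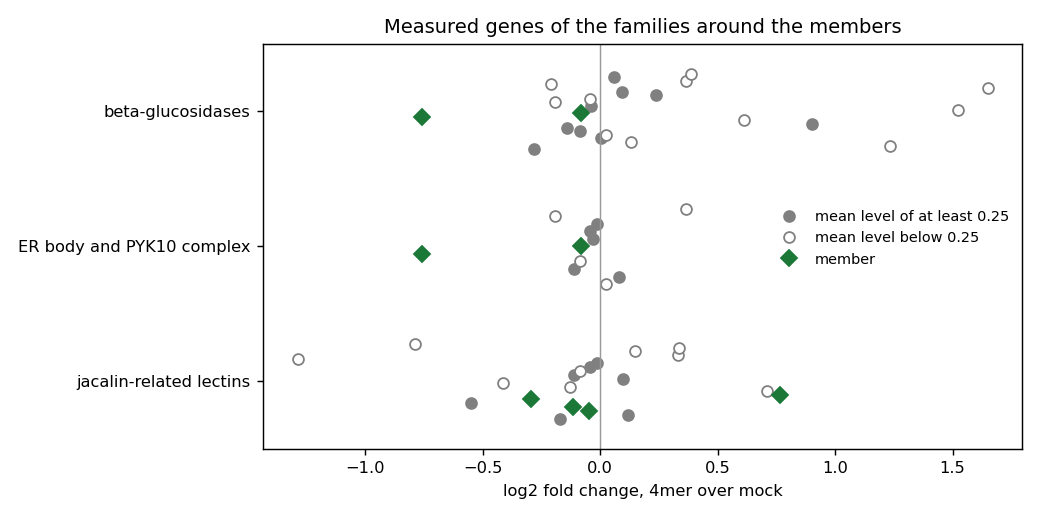
Log2 fold change of the 4mer over mock (x axis) for each measured beta-glucosidase gene, gene of the ER body and PYK10 complex and jacalin-related lectin gene, with 1 point per gene and the genes described here as green diamonds. Open circles are genes with a mean level below 0.25, and *BGLU25*, at -0.76, and *AT1G52100*, at 0.76, lie apart from most genes of their lists with a higher mean level.

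The profile of each gene over the 6 arrays was compared with those of 5981 other named probe sets with a mean level of at least 1, by the root mean square difference of log2 levels after centring each on its mean. Nearest to *PYK10* were the plastid-encoded *atpE*, AT3G05730 and AT4G23670, each with a difference of 0.04 log2 units, whereas the other measured glucosidase and lectin genes differed from it by 0.21 to 0.46. Their highest levels in the 4mer arrays were 60.7, 33.5 and 33.5, and, like *PYK10*, all 3 had their highest level of all in mock replicate 1, at 78.1, 44.7 and 43.6. Of the lectins, AT1G52100 was taken because its probe set had the highest mean signal over the 6 arrays, a rank that it holds through the 4mer arrays and not in mock. Nearest to it were AT5G22690 with a difference of 0.07, *AR781* with 0.09 and *STZ*, a zinc finger repressor that responds to stress, with 0.10. All 3 were higher with the 4mer without overlap, at log2 differences of 0.69, 0.77 and 0.74 (limma adjusted p = 0.122, 0.0183 and 0.0218). A match to a profile that is higher with the 4mer selects such genes, so their values cannot serve as support for AT1G52100. The likeness is a description over 6 arrays that share the 2 treatments and, in mock replicate 1, an array that stands apart.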

How the data were processed

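RNA of 6 whole-seedling samples was hybridized to Affymetrix ATH1 arrays. The deposited intensity values are MicroArray Suite 5.0 signals made by the authors, not logged, with nearly equal trimmed means (496.8 to 497.4, with 2% cut at each end). The scaling target, detection calls and filters are not given in the sources used here. Following the study's methods, 0.01 served as the floor of the signals, which were then divided by the 50th percentile of the array and, here, taken to log2. The groups were compared with limma 3.58.1 in R 4.3.3 (lmFit, eBayes with a variance trend) over all 22746 probe sets, without covariates, with Benjamini-Hochberg adjustment and a threshold of 0.05. SAM, which the methods name without a threshold, was not run. Exact permutation tests used SciPy 1.17.1 and figures matplotlib 3.10.9 in Python 3.11.15. The fit was tested on simulated data with independent noise in each probe set and array. These hold no array that stands apart as mock replicate 1 does, so that case was not covered.

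Probe sets were named through the array's annotation and the RefSeq gene table of TAIR10.1. Of them 13513 pair with 1 gene, 503 pair with several and were not named, and the rest are not named here. A listed gene with more than 1 probe set was represented by its brightest, by the mean over all arrays. The members and lists were chosen with earlier results of these data known. Named genes are all members, list genes with an unadjusted p under 0.05, up to 3 genes per list with the highest mean, and the 3 profiles nearest to *PYK10* and to the lectin with the brightest probe set; others are marked. No sequences are printed, since none were in the tables used. The number of arrays limits the precision.

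The alternatives were quantile normalization, no scaling, a floor or an offset of 0.25, only probe sets with a mean level of at least 1, the replicate number as a block, no variance trend, the mean of the mock arrays in the ratio, and leaving out each array.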

Additional observations from a re-analysis of the deposited data

How the results depend on the processing

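None of the 6 measured genes passed over all arrays; 1 passed without scaling between arrays, 2 passed among the 11431 probe sets with a mean level of at least 1, and leaving out 1 array gave 0 to 2, the 2 being *BGLU25* and AT1G52100 without mock replicate 1. Over all probe sets 23 passed, against 10 with levels below 0.25 set to 0.25, 54 of those with a mean level of at least 1, 2 without a variance trend, and 0 to 338 when 1 array was left out, the 338 being without mock replicate 1. With the replicate number as a block 0 passed; the labels do not say what the number marks, and same-numbered arrays deviated together by r of only -0.04 to -0.01, so the numbers were not taken to pair the samples. With 1 array left out, the log2 fold change of *PYK10* lay between -0.22 and 0.12, the positive value without mock replicate 1. That of AT1G52000 lay between -0.19 and 0.17, the positive value without 4mer replicate 1. For AT1G52050 it stayed below 0 but was only -0.003 without 4mer replicate 1. *BGLU25*, AT1G52070 and AT1G52100 kept their direction in all alternatives. Leaving out an array could not reverse it, since the groups of these genes did not overlap. Divided by the mean instead of the median of the mock arrays, which mock replicate 1 raises, the ratios of the 4mer arrays were 0.939, 0.843 and 0.998 for *PYK10*, against 1.05, 0.947 and 1.12, and 0.584, 0.598 and 0.576 for *BGLU25*. Where not stated otherwise, the cause of a change between settings was not tested. With 3 arrays per group and no detection calls, the dim AT1G52000 allows no statement on changes smaller than its interval.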
